A study of Mus musculus with 12 samples.

Results

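The genes described here are subunits, inhibitors and feedback regulators of the transcription factor NF-kappaB, together with Cd40, a receptor that signals through it. Members were taken by name, as every array probe whose platform gene symbol was Nfkb1, Nfkb2, Relb, Nfkbia, Nfkbie, Tnfaip3, Birc3, Bcl3, Traf1 or Cd40. Of these 10 genes, 9 had probes under those symbols (16 of the 45281 probes on the array), among 19057 genes with a symbol of their own. Nfkb1 was not analysed here. Of the 16 probes, 14 were kept because their detection p was under 0.05 on 2 or more of the 12 arrays. They cover 8 genes, 1 probe standing for each, which were tested among 15561 features. Birc3 did not pass.

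The study measured total RNA from hearts of mice of mixed C57BL6/129Sv strain on Illumina expression arrays, with 2 samples in each of 6 genotypes and no treatment. Mice with both Trex alleles were Trex+/+ STING+/+, Trex+/+ STING+/- or Trex+/+ STING-/-, and mice without Trex were Trex-/- STING+/+, Trex-/- STING+/- or Trex-/- STING-/-. The labels give no age or sex and do not say how the alleles were made. They do not say whether the samples of a group came from separate mice. In the Trex-/- STING+/+ and Trex+/+ STING-/- groups the 2 arrays differed in Xist and the Y-linked Eif2s3y, and so came from different mice. In the other groups the spread behind the p-values may be technical only. The design sets Trex1-deficient hearts against Trex1-sufficient hearts at each STING genotype, and STING genotypes against each other with and without Trex1.

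TREX1 is a DNA exonuclease that clears DNA from the cytosol, and STING is the adaptor that carries the signal of cytosolic DNA to interferon and NF-kappaB transcription. NF-kappaB dimers are held in the cytosol by IkB proteins until kinases mark these for destruction. The canonical arm releases dimers of Rela, Rel and Nfkb1, and the non-canonical arm, used by CD40 and other receptors of the TNF receptor family, processes the Nfkb2 precursor for dimers with Relb. Many genes of the system are themselves NF-kappaB targets, among them the IkB genes Nfkbia and Nfkbie, the ubiquitin-editing enzyme Tnfaip3 (A20), the inhibitor of apoptosis Birc3 (cIAP2), the atypical IkB protein Bcl3 and the signalling adaptor Traf1.

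RefSeq promoter windows, of 250 bases before and 50 bases after an annotated gene start (build GRCm38.p6), were given for 7 of the 10 members, 10 windows in all. They are shown for the members whose windows hold the kappaB consensus, the DNA motif bound by NF-kappaB, so that the motif can be set beside the arrays. The window of Nfkb2 is at chr19:46304487-46304786 on the plus strand, that of Nfkbia at chr12:55492598-55492897 on the minus strand and that of Nfkbie at chr17:45555450-45555749 on the plus strand. The window of Tnfaip3 is at chr10:19015361-19015660 and that of Bcl3 at chr7:19822706-19823005, both on the minus strand. Capitals mark matches to the kappaB consensus on either strand, and matches that overlap form 1 run.
Nfkb2: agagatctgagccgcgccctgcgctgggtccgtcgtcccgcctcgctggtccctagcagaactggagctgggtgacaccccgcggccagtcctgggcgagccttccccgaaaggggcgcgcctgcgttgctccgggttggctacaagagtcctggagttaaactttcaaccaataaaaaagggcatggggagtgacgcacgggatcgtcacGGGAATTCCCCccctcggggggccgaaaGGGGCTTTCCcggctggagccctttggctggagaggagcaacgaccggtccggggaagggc
Nfkbia: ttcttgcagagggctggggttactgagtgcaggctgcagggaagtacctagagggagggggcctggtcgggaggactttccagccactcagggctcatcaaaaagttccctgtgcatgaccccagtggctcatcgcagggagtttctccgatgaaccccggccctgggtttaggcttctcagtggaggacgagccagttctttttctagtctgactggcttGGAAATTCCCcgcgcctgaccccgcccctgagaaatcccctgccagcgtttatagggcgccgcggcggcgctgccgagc
Nfkbie: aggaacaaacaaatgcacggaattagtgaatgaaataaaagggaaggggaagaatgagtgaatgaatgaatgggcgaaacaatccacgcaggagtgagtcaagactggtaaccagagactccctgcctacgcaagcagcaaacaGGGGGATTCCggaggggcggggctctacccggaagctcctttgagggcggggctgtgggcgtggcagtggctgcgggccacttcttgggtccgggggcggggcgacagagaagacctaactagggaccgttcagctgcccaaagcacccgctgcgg
Tnfaip3: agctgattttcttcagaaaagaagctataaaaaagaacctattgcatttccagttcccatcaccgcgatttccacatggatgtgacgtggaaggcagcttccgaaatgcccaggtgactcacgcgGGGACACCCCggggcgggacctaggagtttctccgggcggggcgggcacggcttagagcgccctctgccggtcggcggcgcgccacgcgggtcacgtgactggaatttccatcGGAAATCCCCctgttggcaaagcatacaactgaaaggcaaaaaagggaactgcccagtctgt
Bcl3: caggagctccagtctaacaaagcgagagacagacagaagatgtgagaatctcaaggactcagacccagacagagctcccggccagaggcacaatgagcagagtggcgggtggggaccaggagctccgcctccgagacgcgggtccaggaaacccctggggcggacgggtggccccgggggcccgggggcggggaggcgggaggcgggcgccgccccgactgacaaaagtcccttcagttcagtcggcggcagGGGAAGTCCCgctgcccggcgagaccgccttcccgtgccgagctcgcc
The kappaB consensus matched in windows of 5 of the 7 members, against 9.55% of the 27025 genes with a window and 8.46% of all 32851 windows in the table. Nfkb2 has 2 further starts, whose windows overlap and share a match. The windows of Traf1 and Birc3, and the second window of Tnfaip3, held no match. The interferon-stimulated response element matched in no member window and in 3.44% of all windows, and the gamma-activated site (TTCNNNGAA) matched in 1 Nfkb2 window and in 8.3% of all windows. A match describes these letters only and does not show that a factor binds there.

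Between 38.3% and 44.7% of the probes were detected on each array, and the number of arrays limits the precision throughout. Trex1 was checked on probe ILMN_3131766, which read 6.53 to 7.34 (log2 normalized signal) on the 6 Trex+/+ arrays and 5.38 to 5.68 on 5 of the 6 Trex-/- arrays. On the second array labelled Trex-/- STING+/+ it read 6.76, within the Trex+/+ range, so that group is written as labelled, and the member and list counts on STING+/+ are also given without this array. The brighter Trex1 probe, ILMN_2509737, separated the groups less, with 7.37 to 8.16 on Trex+/+, 6.79 to 7.30 on the same 5 Trex-/- arrays and 7.84 on that array. Probe ILMN_2442241 of Trex1 was detected on no array. Sting1 read 7.03 and 6.94 on the arrays labelled Trex-/- STING+/+ and between 4.67 and 5.75 on the other 10. Where these probes lie relative to the deleted parts was not analysed here. A second label of the samples gives another STING genotype than the genotype label for 7 of the 12 samples, including STING-/- for both arrays labelled Trex-/- STING+/+. The genotype label, which the titles share, was used. Arrays also differed in Xist, which read 8.93 to 9.97 on 4 arrays and 4.34 to 4.86 on the other 8. The 4 were both Trex+/+ STING+/+, the second labelled Trex-/- STING+/+ and the first Trex+/+ STING-/-. The brighter probe of the Y-linked Eif2s3y read 4.35 to 4.45 on those 4 arrays and 9.79 to 10.57 on the other 8. This is the pattern of female and male hearts. The Trex1 comparison on STING+/+ thus sets arrays of female pattern against a first array of male and a second of female pattern. The brightest Hnrnpa2b1 probe, ILMN_2615855, read 5.91 on the second array labelled Trex-/- STING+/+ and 8.47 on the first Trex+/+ STING+/- array, against 10.9 to 11.6 elsewhere. Probe ILMN_2771074 of the same gene showed no such drop, with 7.30 and 8.37 on these arrays and 7.28 to 8.28 elsewhere. The low-Hnrnpa2b1 arrays below are thus named for the brightest probe only. Markers of the atrium read 12.59 to 13.37 on average on both Trex+/+ STING-/- arrays and the second Trex-/- STING-/- array, 9.96 on the second Trex-/- STING+/- array and 7.37 to 7.79 on the other 8, and the part of these array differences in the results was not tested beyond the alternatives given.

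In hearts with both STING alleles, loss of Trex1 went with higher RNA signal of most of these genes. Cd40 was 9.91-fold higher, Bcl3 3.2-fold and Tnfaip3 4.64-fold (detected on 1 of the 2 Trex+/+ arrays), Traf1 at least 7-fold and Nfkbie at least 4.8-fold. Here and below, a fold given as at least sets the brighter group against the lowest signal detected on each dim array. Such a fold holds for the background-corrected signals only and allows for no spread between arrays. In all, 5 of the 8 tested members were higher at an adjusted p under 0.05 and none lower (limma, Benjamini-Hochberg over all features). Traf1 is among them, and without the arrays labelled Trex-/- STING+/+ it would not have passed the detection filter. Its place in this and the later counts was thus favoured by the filter. Across all features 21.7% passed in either direction, 11.8% higher and 9.93% lower. The median difference of the 8 members was 1.95 on the log2 scale, against -0.04 over all features. No member passed the test for Trex1 on STING+/- or on STING-/-, where 1.27% and 0.0129% of all features passed, so that none of 8 is near the background share. As the RNA came from heart tissue and not from sorted cells, more cells of a type and more RNA per cell cannot be told apart.

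**Figure D1:**
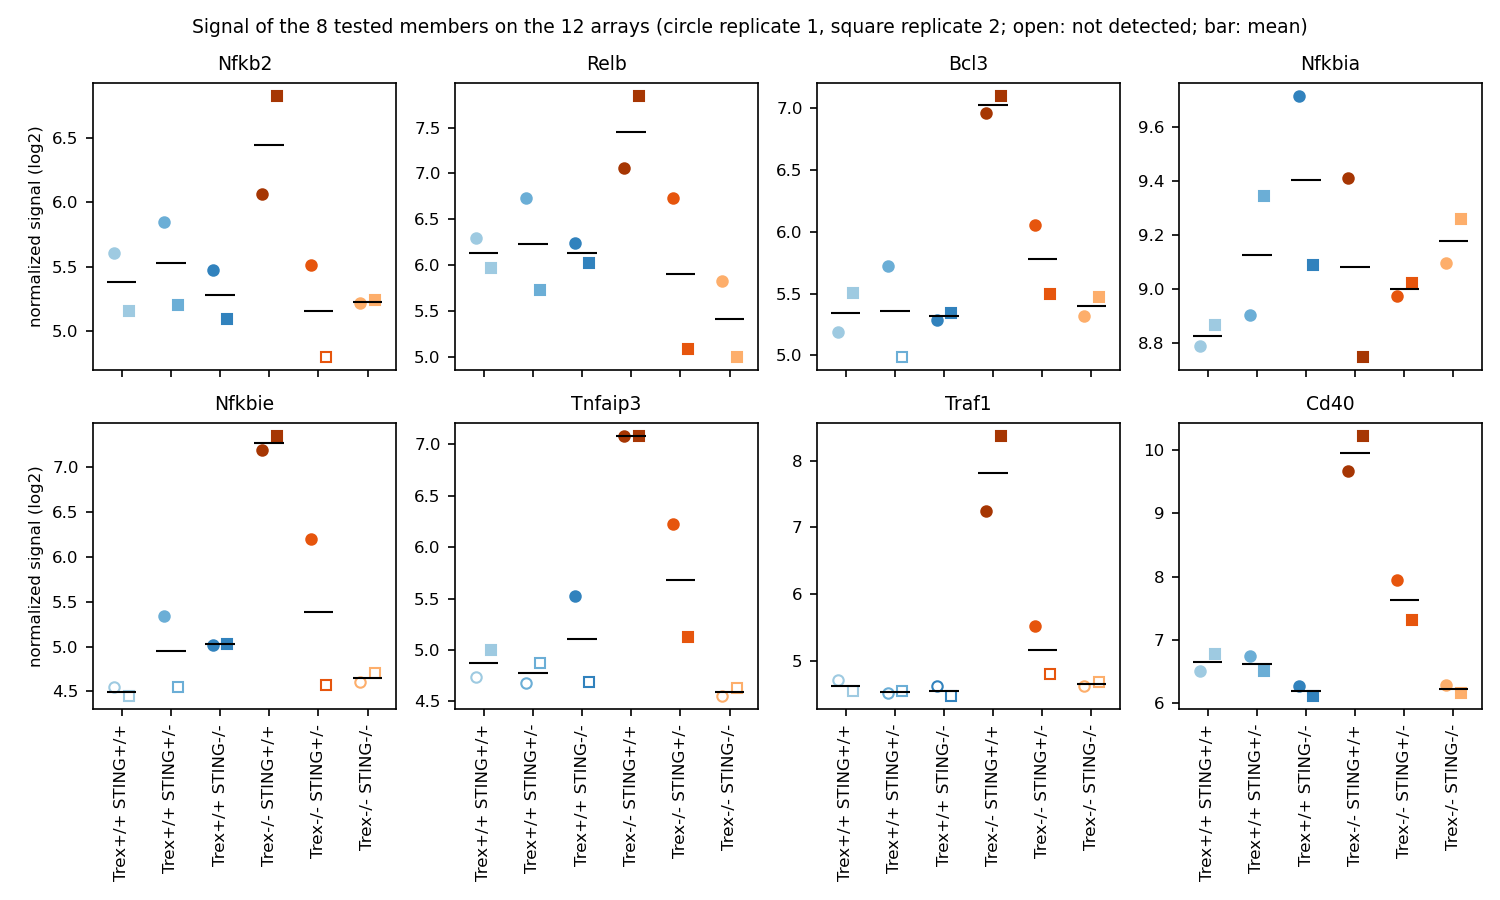
Normalized log2 signal (y axis) of the 8 tested members on the 12 arrays by genotype (x axis); circles are replicate 1, squares replicate 2, open symbols mark arrays where the probe was not detected, and bars are means of 2 arrays. For 7 of the 8 members both arrays labelled Trex-/- STING+/+ lie above the other 10 arrays, which held for 13.8% of all features, and Nfkbia is the exception.

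Among the subunits, Nfkb2 encodes the precursor of p52. Its log2 signal was 5.60 and 5.15 on the Trex+/+ STING+/+ arrays, 5.85 and 5.20 on Trex+/+ STING+/-, 5.47 and 5.09 on Trex+/+ STING-/-, 6.07 and 6.83 on Trex-/- STING+/+, 5.51 and 4.80 on Trex-/- STING+/-, and 5.22 and 5.24 on Trex-/- STING-/-. Both arrays labelled Trex-/- STING+/+ were above all others, by a gap smaller than the spread within that group. The Trex1 difference on STING+/+ was 1.07 ± 0.35 (SE, n = 2 against 2) and missed the threshold (adjusted p = 0.0511), although it passed under 6 of 22 alternatives. Between Trex-/- STING-/- and Trex-/- STING+/+ hearts Nfkb2 fell by 1.22 ± 0.35 on the log2 scale (adjusted p = 0.0289). Without the second array labelled Trex-/- STING+/+ that difference was -0.84 (adjusted p = 0.168, and 0.00982 to 0.168 over all alternatives).

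Relb, the partner of p52 in non-canonical dimers, varied more between replicates. Its log2 signal was 6.30 and 5.97 on Trex+/+ STING+/+, 6.73 and 5.72 on Trex+/+ STING+/-, 6.24 and 6.02 on Trex+/+ STING-/-, 7.06 and 7.84 on Trex-/- STING+/+, 6.73 and 5.08 on Trex-/- STING+/-, and 5.83 and 5.00 on Trex-/- STING-/-. The arrays labelled Trex-/- STING+/+ were again the highest, and the first arrays of both STING+/- groups came next at the same level. The Trex1 difference on STING+/+ was 1.32 ± 0.53 and did not pass (adjusted p = 0.107). Relb fell by 2.04 ± 0.53 in Trex-/- STING-/- against Trex-/- STING+/+ hearts (adjusted p = 0.0208). Without the second array labelled Trex-/- STING+/+ the difference was -1.65 (adjusted p = 0.121), and without the second Trex-/- STING-/- array it was -1.62 (adjusted p = 0.124, with 0.00848 to 0.124 over all alternatives). Relb and Nfkb2 both read higher on the low-Hnrnpa2b1 array than on the other array of its group, in both groups that hold one. The same held for Nfkbie, Bcl3 and Cd40, but not for Traf1, Tnfaip3 and Nfkbia. The part of this in the differences of these members was not tested.

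Bcl3 is an atypical IkB protein that joins p50 or p52 dimers in the nucleus. Its log2 signal was 5.19 and 5.50 on Trex+/+ STING+/+, 5.72 and 4.99 on Trex+/+ STING+/-, 5.29 and 5.35 on Trex+/+ STING-/-, 6.96 and 7.09 on Trex-/- STING+/+, 6.05 and 5.50 on Trex-/- STING+/-, and 5.32 and 5.47 on Trex-/- STING-/-. The arrays labelled Trex-/- STING+/+ lay above every other array and close to each other, and the first Trex-/- STING+/- array came next. Bcl3 rose by 1.68 ± 0.28 with loss of Trex1 on STING+/+ (adjusted p = 0.00212) and fell by 1.63 ± 0.28 in Trex-/- STING-/- against Trex-/- STING+/+ hearts (adjusted p = 0.00234). Both calls held without the second array labelled Trex-/- STING+/+, at 1.61 and -1.56.

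Of the IkB genes, Nfkbia, the IkBalpha gene and the classical early feedback inhibitor, had 2 probes detected on all 12 arrays. The brighter read 8.79 and 8.87 on Trex+/+ STING+/+, 8.90 and 9.34 on Trex+/+ STING+/-, 9.71 and 9.09 on Trex+/+ STING-/-, 9.41 and 8.75 on Trex-/- STING+/+, 8.97 and 9.02 on Trex-/- STING+/-, and 9.09 and 9.26 on Trex-/- STING-/-. The arrays labelled Trex-/- STING+/+ were the second highest and the lowest of the 12, and no genotype stood apart. The Trex1 difference on STING+/+ was 0.25 ± 0.28, with a 95% confidence interval of -0.37 to 0.88 (adjusted p = 0.571), an interval that leaves room for a rise or for none. Its other probe differed by 0.38 ± 0.28 in the same comparison (adjusted p = 0.385 with every probe a feature). On STING+/- the probes differed more, the brighter at -0.13 ± 0.28 and the other at -0.90 ± 0.28 (adjusted p = 0.243), and the other probe differed by -0.88 ± 0.28 between Trex-/- STING+/- and Trex-/- STING+/+ hearts (adjusted p = 0.078). The range of the brighter probe over the 12 arrays, 0.97, exceeded that of 37.7% of features. The other probe ranged over 1.53 and was highest, at 7.90, on the second array labelled Trex-/- STING+/+, where the brighter probe was lowest.

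Nfkbie, the IkBepsilon gene, had a log2 signal of 4.55 and 4.45 on Trex+/+ STING+/+, 5.34 and 4.55 on Trex+/+ STING+/-, 5.02 and 5.03 on Trex+/+ STING-/-, 7.19 and 7.35 on Trex-/- STING+/+, 6.20 and 4.58 on Trex-/- STING+/-, and 4.61 and 4.70 on Trex-/- STING-/-. It was detected on 6 arrays, on neither Trex+/+ STING+/+ array and on neither Trex-/- STING-/- array. It rose by 2.77 ± 0.44 with loss of Trex1 on STING+/+, at least 4.8-fold (adjusted p = 0.0017). A bound of this kind sets the brighter group against the lowest signal detected on each dim array and allows for no spread between arrays. Nfkbie fell by 2.61 ± 0.44 in Trex-/- STING-/- against Trex-/- STING+/+ hearts, at least 4.96-fold (adjusted p = 0.00219). Its second probe was detected on 2 arrays, the first labelled Trex-/- STING+/+ (5.42) and the first Trex-/- STING+/- (4.97), and differed by 0.46 ± 0.27 between the STING+/+ groups (adjusted p = 0.261).

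Of the feedback genes, Tnfaip3 encodes A20, which edits ubiquitin chains on receptor complexes and so restrains NF-kappaB. Its log2 signal was 4.74 and 5.00 on Trex+/+ STING+/+, 4.68 and 4.87 on Trex+/+ STING+/-, 5.53 and 4.69 on Trex+/+ STING-/-, 7.09 and 7.08 on Trex-/- STING+/+, 6.23 and 5.13 on Trex-/- STING+/-, and 4.55 and 4.63 on Trex-/- STING-/-. It was detected on both arrays of only the Trex-/- STING+/+ and Trex-/- STING+/- groups, and on 1 array each of Trex+/+ STING+/+ and Trex+/+ STING-/-. Tnfaip3 rose by 2.21 ± 0.36 with loss of Trex1 on STING+/+ (adjusted p = 0.0019) and fell by 2.50 ± 0.36, at least 4.36-fold, in Trex-/- STING-/- against Trex-/- STING+/+ hearts (adjusted p = 0.000916).

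Birc3 encodes a ubiquitin ligase of the TNF receptor complex. Its single probe was detected on 1 of 12 arrays, the first labelled Trex-/- STING+/+, at 5.38. On the other 11 it read between 4.27 and 4.76, and it was not tested.

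Traf1 is an adaptor of TNF receptor family members, CD40 among them, and is known as a gene switched on in activated lymphocytes and myeloid cells. Its log2 signal was 4.71 and 4.55 on Trex+/+ STING+/+, 4.52 and 4.56 on Trex+/+ STING+/-, 4.62 and 4.47 on Trex+/+ STING-/-, 7.25 and 8.37 on Trex-/- STING+/+, 5.52 and 4.80 on Trex-/- STING+/-, and 4.62 and 4.68 on Trex-/- STING-/-. It was detected on 3 arrays, both labelled Trex-/- STING+/+ and the first Trex-/- STING+/-. It was therefore tested only because of its signal in the group labelled Trex-/- STING+/+. Traf1 rose by 3.18 ± 0.34 with loss of Trex1 on STING+/+, at least 7-fold (adjusted p = 0.00019). It fell by 3.16 ± 0.34 in Trex-/- STING-/- against Trex-/- STING+/+ hearts, at least 7.23-fold (adjusted p = 0.000178). A second Traf1 probe was detected on the same 3 arrays, at 7.16, 8.09 and 5.58, and differed by 3.09 ± 0.36 between the STING+/+ groups (adjusted p = 0.000292).

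Cd40 is a receptor of B cells, dendritic cells and macrophages that T cells engage through CD40 ligand. Its log2 signal was 6.50 and 6.78 on Trex+/+ STING+/+, 6.74 and 6.50 on Trex+/+ STING+/-, 6.27 and 6.11 on Trex+/+ STING-/-, 9.67 and 10.23 on Trex-/- STING+/+, 7.95 and 7.31 on Trex-/- STING+/-, and 6.28 and 6.16 on Trex-/- STING-/-. On the deposited linear scale the intensity ran from 129.1 to 1362.2. On this probe, ILMN_3115796, the groups fell in 3 steps, with Trex-/- STING+/+ highest, Trex-/- STING+/- next and the remaining 4 groups together, and arrays of different steps did not overlap. Cd40 rose by 3.31 ± 0.27 with loss of Trex1 on STING+/+ (adjusted p = 4.363e-05). Within Trex-/- hearts Cd40 fell by 2.32 ± 0.27 from STING+/+ to STING+/- (adjusted p = 0.00144) and by a further 1.41 ± 0.27 from STING+/- to STING-/- (adjusted p = 0.0338). The last call was lost under 13 of 22 alternatives, with adjusted p from 0.0118 to 0.324.

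**Figure D2:**
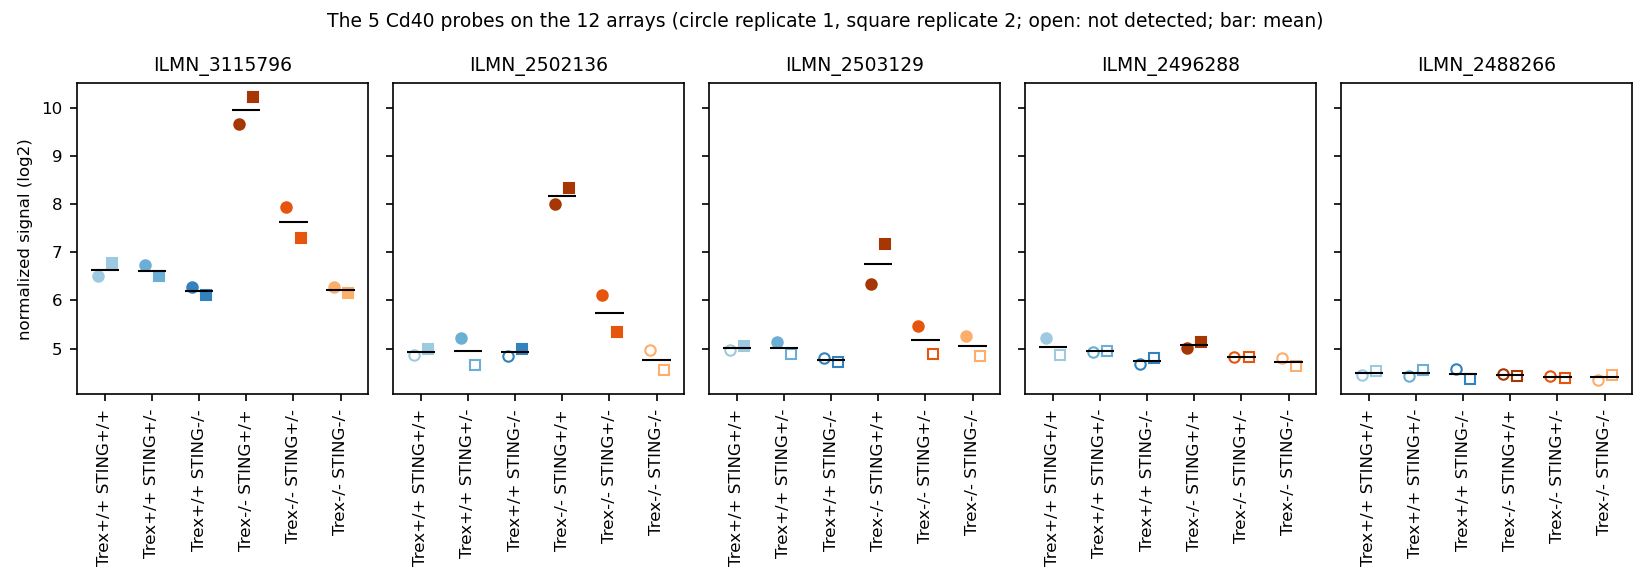
Normalized log2 signal (y axis) of each of the 5 Cd40 probes on the 12 arrays by genotype (x axis); symbols are as in the plot of all members. Probes ILMN_3115796, ILMN_2502136 and ILMN_2503129 are highest on the arrays labelled Trex-/- STING+/+, ILMN_2496288 is at 5.21 or below on every array, and ILMN_2488266 was detected on none.

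The 5 Cd40 probes did not all move alike. With every probe a feature, ILMN_2502136 differed by 3.25 ± 0.30 (adjusted p = 8.962e-05) and ILMN_2503129 by 1.74 ± 0.30 (adjusted p = 0.00318) between Trex-/- and Trex+/+ on STING+/+. From STING+/- to STING-/- within Trex-/- they differed by -0.97 ± 0.30 (adjusted p = 0.2445) and -0.13 ± 0.30 (adjusted p = 0.983). On the Trex-/- STING+/- arrays ILMN_2502136 lay above the lower groups, while ILMN_2503129, at 4.88 and 5.47, overlapped them. Probe ILMN_2496288, detected on 3 arrays, differed by 0.04 ± 0.19 (adjusted p = 0.918). Probe ILMN_2488266 was detected on no array. Which transcripts of Cd40 these probes match was not analysed here.

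With both STING alleles lost, none of 8 members passed for the Trex1 difference on STING-/- (0.0129% of features passed; 0 members had an unadjusted p under 0.05 in limma, the only test run). The difference was 0.03 ± 0.27 for Cd40, with a 95% confidence interval of -0.56 to 0.62. Traf1 was detected on none of the 4 arrays compared and has no measured difference there. The confidence interval of Relb was -1.91 to 0.47, that of Nfkb2 -0.82 to 0.72 and that of Bcl3 -0.53 to 0.70. Nfkbie and Tnfaip3 were detected on neither Trex-/- STING-/- array. In Trex+/+ hearts, loss of both STING alleles likewise left no member past the threshold (0.0578% of features, 0.0386% higher and 0.0193% lower; 0 members at an unadjusted p under 0.05), with differences from -0.45 for Cd40 to 0.58 for Nfkbia.

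**Figure D3:**
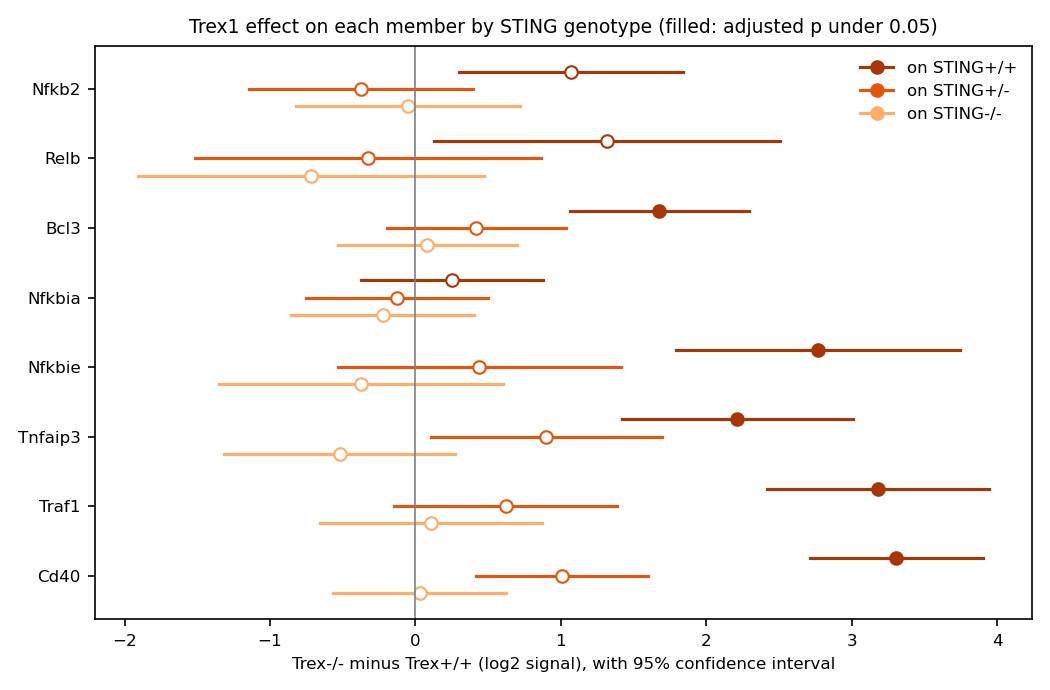
Trex-/- minus Trex+/+ difference in log2 signal (x axis) for each tested member (y axis) at each STING genotype; lines are 95% confidence intervals and filled points have an adjusted p under 0.05. On STING+/+ 5 members are filled, with Cd40 at 3.31 and Traf1 at 3.18, and on STING+/- and STING-/- none is.

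The dependence of the Trex1 effect on STING was tested as a difference of differences. Between STING+/+ and STING-/- it was larger on STING+/+ for 5 of 8 members (9.87% of features passed in either direction, 6.4% higher and 3.47% lower), namely Cd40 by 3.28 ± 0.38 (adjusted p = 0.00107), Nfkbie by 3.14 ± 0.62 (adjusted p = 0.0119), Traf1 by 3.08 ± 0.49 (adjusted p = 0.00421), Tnfaip3 by 2.73 ± 0.50 (adjusted p = 0.00881) and Bcl3 by 1.60 ± 0.39 (adjusted p = 0.0303). Without the second array labelled Trex-/- STING+/+ it was 2.99 for Cd40, 3.08 for Nfkbie, 2.52 for Traf1 and 2.75 for Tnfaip3, all past the threshold. For Relb (2.04, adjusted p = 0.127) and Nfkb2 (1.12, adjusted p = 0.189) the difference did not pass. Traf1 was detected on no Trex+/+ array and on neither Trex-/- STING-/- array. Its values here thus set the arrays labelled Trex-/- STING+/+ against signals at background, and no Trex1 effect was measured on STING-/-. Nfkbie was detected on neither array of Trex+/+ STING+/+ and Trex-/- STING-/-, and Tnfaip3 on neither Trex-/- STING-/- array. The Bcl3 call was lost under 9 of 22 alternatives, among them leaving out the second array labelled Trex-/- STING+/+ (1.53, adjusted p = 0.0631, with 0.0171 to 0.119 over all). Between STING+/+ and STING+/- the Trex1 effect was larger on STING+/+ for Traf1 by 2.56 ± 0.49 (adjusted p = 0.0326) and for Cd40 by 2.30 ± 0.38 (adjusted p = 0.0221), where 1.92% of features passed, 1.39% higher and 0.527% lower. Both calls depended on the setting, Traf1 losing its call under 14 of 21 alternatives and Cd40 under 6 of 22. Between STING+/- and STING-/- no member passed (0.257% of features), and Tnfaip3 at 1.42 ± 0.50 and Cd40 at 0.98 ± 0.38 were the 2 members with an unadjusted p under 0.05. These 3 comparisons share groups with each other and with those above, and the 2 arrays labelled Trex-/- STING+/+ enter both the Trex1 comparison and the STING comparisons within Trex-/-.

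On STING+/- the Trex1 difference passed for none of 8 members (1.27% of features, 1.14% higher and 0.129% lower; 2 members, Cd40 and Tnfaip3, at an unadjusted p under 0.05). Cd40 differed by 1.01 ± 0.27 (adjusted p = 0.134) and was higher on both Trex-/- arrays than on both Trex+/+ arrays. Tnfaip3, detected on neither Trex+/+ array, differed by 0.90 ± 0.36 (adjusted p = 0.355), also without overlap. Traf1 differed by 0.62 ± 0.34, Nfkbie by 0.44 ± 0.44, Bcl3 by 0.42 ± 0.28, Nfkbia by -0.13 ± 0.28, Relb by -0.32 ± 0.53 and Nfkb2 by -0.37 ± 0.35. Of the arrays compared, Traf1 was detected only on the first Trex-/- STING+/- array, and Nfkbie only on the first array of each group. Their values here rest largely on signals at background. Against Trex-/- STING+/+ hearts, 6 of 8 members were lower in Trex-/- STING+/- hearts (11% of features passed, 4.25% higher and 6.75% lower). Besides Cd40 these were Traf1 at -2.65 ± 0.34 (adjusted p = 0.00224), Nfkbie at -1.88 ± 0.44 (adjusted p = 0.0241), Tnfaip3 at -1.41 ± 0.36 (adjusted p = 0.0329), Nfkb2 at -1.30 ± 0.35 (adjusted p = 0.0397) and Bcl3 at -1.25 ± 0.28 (adjusted p = 0.0194). Only 2 of 8 passed without the second array labelled Trex-/- STING+/+, and 2 of 8 without the second Trex-/- STING+/- array. In both cases these were Cd40 and Traf1. With only the groups compared in the fit none of the 6 passed (Cd40 adjusted p = 0.0877, Traf1 adjusted p = 0.0903).

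The 2 Trex-/- STING+/- arrays did not give the same picture. The first read above the second for 7 of 8 members, by 1.64 for Relb, 1.62 for Nfkbie, 1.10 for Tnfaip3, 0.71 for Nfkb2 and Traf1, 0.64 for Cd40 and 0.56 for Bcl3, and below it by 0.05 for Nfkbia. In the other 5 groups the first array read higher for 2 to 6 members. The mean of 6 interferon-stimulated genes was 12.37 on the first and 11.24 on the second array, that of the 3 tested T cell markers 6.97 and 5.83, and that of 6 macrophage markers 9.26 and 8.96. The atrial markers stood at 7.79 and 9.96 and the 2 tested liver markers (Mup2 and Apoa1, of 3 listed) at 10.54 and 6.14, while liver markers read 4.40 to 8.98 on the other arrays and Alb was detected on none. The part of any of these in the difference between the arrays was not tested.

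Between Trex-/- STING-/- and Trex-/- STING+/+ hearts 7 of 8 members were lower (24% of features passed, 11.3% higher and 12.7% lower), all but Nfkbia. The median over the 8 members was -2.27 on the log2 scale, against 0.03 over all features. Cd40 fell by 3.73 ± 0.27, which is 13.3-fold (adjusted p = 2.16e-05). Cd40, Traf1, Nfkbie, Tnfaip3 and Bcl3 kept this call under every alternative run, as they did for the Trex1 difference on STING+/+. The stricter filter left Traf1 and Nfkbie untested. Without the second array labelled Trex-/- STING+/+ the Trex1 difference on STING+/+ was 3.02 for Cd40, 2.63 for Traf1, 2.70 for Nfkbie and 2.22 for Tnfaip3, all past the threshold. Between Trex-/- STING-/- and Trex-/- STING+/- hearts only Cd40 passed (1.36% of features, 0.141% higher and 1.21% lower), and Tnfaip3 differed by -1.09 ± 0.36 (adjusted p = 0.258). The size of the differences depended on background correction. Without it, the Trex1 difference on STING+/+ was 2.70 for Cd40, 1.81 for Traf1, 1.47 for Nfkbie, 1.13 for Tnfaip3 and 0.90 for Bcl3, with the same 5 calls.

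Markers of several blood cell types were also higher on the arrays labelled Trex-/- STING+/+. The mean of the 3 tested T cell markers (Cd3e, Cd3g and Cd3d, of 5 listed) was 9.02 and 9.47 on the arrays labelled Trex-/- STING+/+, 6.97 and 5.83 on Trex-/- STING+/-, and 4.47 to 4.74 on the other 8, and Cd4 and Cd8a were detected on no array. Of the macrophage markers 6 of 7 were tested, with means of 9.77 and 9.59, 9.26 and 8.96, and 7.68 to 8.36. Of them 4 rose with loss of Trex1 on STING+/+, Fcgr1 by 4.32 ± 0.25 (at least 17.4-fold) and Adgre1 by 3.04 ± 0.38 among them, while Mrc1 fell by 1.24 ± 0.22. The B cell list rested on Cd79b alone, which read 6.28 and 7.20, 5.90 and 5.93, and 4.64 to 5.39, and the defining B cell markers Ms4a1 and Pax5 were detected on no array. The dendritic cell list (5 of 7 tested) had means of 5.56 and 6.24, 5.59 and 5.23, and 5.01 to 5.41, with Xcr1 detected on none, so the second Trex-/- STING+/- array lay inside the range of the other 8. Itgax, Clec9a and Ccr7 were detected on 2 arrays each and did not pass the filter without the second array labelled Trex-/- STING+/+. Their place in this mean was thus favoured by the filter. Of the neutrophil markers, 2 of 4 were tested and none passed on STING+/+, with means of 6.15 and 7.09, 6.41 and 5.53, and 5.39 to 7.20, and Cxcr2 was detected on none. The part of any of these cells in the Cd40, Traf1 and other differences was not tested. Cardiomyocyte markers, 5 of 6 tested, were bright on every array, with means of 12.71 and 12.62 on the arrays labelled Trex-/- STING+/+ and 13.40 to 13.90 elsewhere.

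Other genes of the pathway, from lists chosen by role, also differed on STING+/+. Beside the counts stand the shares over all features, 11.8% higher and 9.93% lower. The filter may favour list genes that were dim outside the group labelled Trex-/- STING+/+, as it did Traf1. Of 11 tested ligands and receptors 8 rose with loss of Trex1 and none fell, with a median of 1.23, and 7 rose without the second array labelled Trex-/- STING+/+. They included Tnfsf13b (BAFF) at 3.71 ± 0.35, Tnf at 2.56 ± 0.24 (at least 3.97-fold), Il1b at 2.40 ± 0.48 and the lymphotoxin gene Ltb at 1.98 ± 0.19, ligands that act through either NF-kappaB arm. Of 17 other target genes 9 rose and 1 fell, with a median of 1.08 (7 and 1 without that array). The anti-apoptotic Bcl2a1d and Bcl2a1b differed by 5.29 ± 0.50 and 5.12 ± 0.51, the chemokine Ccl2 by 3.86 ± 0.67 and the adhesion molecule Icam1 by 2.37 ± 0.35, while Sod2 fell by 0.84 ± 0.17. The Bcl2a1 genes are near-identical copies, so their probes may not separate them.

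Of 16 adaptors and kinases that act between receptor and dimer 2 rose and 4 fell, with a median of 0.06. Rnf31, a ligase of linear ubiquitin chains, rose by 1.30 ± 0.31 and Ikbkb, the IKKbeta kinase, by 0.83 ± 0.23, while the ubiquitin-conjugating Ube2n fell by 1.01 ± 0.27 and Tab1 by 0.72 ± 0.23. Without the second array labelled Trex-/- STING+/+ only Ikbkb of this list passed, at 1.15 (adjusted p = 0.0071). Of 5 other subunit and IkB genes 2 rose, the atypical IkB genes Nfkbid at 2.55 ± 0.36 (at least 4.13-fold) and Nfkbiz at 2.21 ± 0.34. Of 9 other feedback genes Otulin rose by 1.23 ± 0.20 and Tnip1 by 1.18 ± 0.34, and Otud7b fell by 0.84 ± 0.26, and without that array Tnip1 (1.12, adjusted p = 0.105) and Otud7b (-0.49, adjusted p = 0.227) did not pass. The small lists hold too few genes for their counts to be set against the shares over all features. Of 3 tested lymphoid chemokine and adhesion genes known as Relb targets, Ccl19 rose by 2.08 ± 0.46 and Ccl21a fell by 2.30 ± 0.25. Without that array the numbers of higher and lower calls were as before for the other subunit, lymphoid, T cell and macrophage lists, and went from 2 to 0 for the dendritic cell list, of which 2 genes were then tested.

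**Figure D4:**
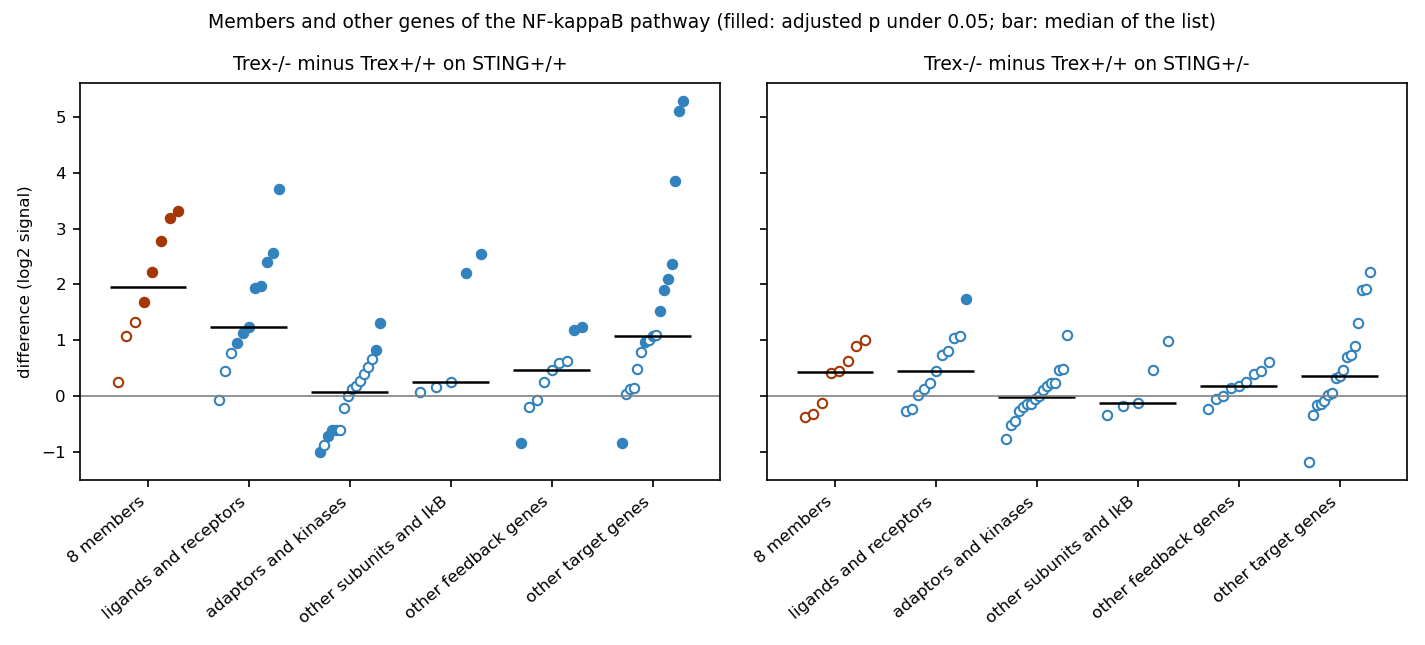
Trex-/- minus Trex+/+ difference in log2 signal (y axis) for the 8 members and the tested genes of 5 pathway lists (x axis), on STING+/+ (left) and STING+/- (right); each point is a gene, filled where the adjusted p is under 0.05, and bars are medians. On STING+/+ the medians run from 0.06 for adaptors and kinases to 1.95 for the members, and on STING+/- 1 gene, Tnfsf13b, is filled.

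On STING+/- the same lists gave 1 call among ligands and receptors, Tnfsf13b at 1.73 ± 0.35 (adjusted p = 0.0496), and Ccl21a fell by 1.48 ± 0.25 on the log2 scale (adjusted p = 0.0195). No gene of the other 4 lists passed. The 6 interferon-stimulated genes tested all rose there, with a median of 4.58, against 5.89 on STING+/+. Between Trex-/- STING-/- and Trex-/- STING+/+ hearts 8 of 11 ligands and receptors fell and none rose, and 7 of 17 other targets fell and 1, Sod2, rose by 0.58 ± 0.17, where 12.7% of all features were lower and 11.3% higher. Il1b was at least 6.51-fold lower (adjusted p = 0.00202), Tnf at least 4.1-fold lower (adjusted p = 8.221e-05) and Ccl2 at least 13.8-fold lower (adjusted p = 0.00146), none of them detected on a Trex-/- STING-/- array.

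The genes with the profile nearest to each member over the 12 arrays were found by the root mean square difference of log2 signals, each profile centred on its own mean, among 12072 genes. For Cd40 they were Havcr2 at 0.197, Vav1 at 0.206 and Gimap7 at 0.218, where the median gene lay at 1.37. For Traf1 they were Lat at 0.113, Cxcr3 at 0.143 and Zap70 at 0.151, with a median gene at 1.26. Bcl3 was nearest to Cyba at 0.142, Abcc3 at 0.145 and Akna at 0.16, and Tnfaip3 to Axl at 0.245, Clec5a at 0.256 and Ppp1r18 at 0.261. Nfkbie was nearest to Tlr1 at 0.264, Pilrb1 at 0.277 and Rgs16 at 0.285, and Relb to Junb at 0.359, Tespa1 at 0.371 and Myo1e at 0.381. Nfkb2 was nearest to Cnn2 at 0.184, Odc1 at 0.189 and Cyp4f16 at 0.195, and Nfkbia to Tmem241 at 0.14, Agfg1 at 0.149 and Sec24b at 0.153. Among the members themselves Cd40 and Traf1 lay nearest, 0.345 apart, then Nfkbie and Tnfaip3 at 0.368 and Nfkb2 and Relb at 0.371, while Cd40 and Nfkbia lay farthest, 1.41 apart. These distances describe profiles over the same 12 arrays, the second array labelled Trex-/- STING+/+ included, and the same 6 groups.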

How the data were processed

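Per the labels' protocols, heart RNA of 12 samples was turned into biotinylated cRNA for Illumina arrays. For each of 45281 probes the authors deposited a linear, non-normalized intensity, and beside it a value headed as a detection p-value in the deposited file, which rises with the intensity and was therefore read as 1 minus p. They also deposited processed log2 values centred per probe, used as an alternative. Quantile-normalized log2 signals came within 0.00515 of those values over 8047 bright probes.

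Signals were background-corrected and quantile-normalized in limma 3.58.1 on R 4.3.3 (neqc, offset 16). After the filter 22810 probes remained, and the brightest probe of each gene gave 15561 features, 12080 with 1 gene symbol. Symbols came from the platform annotation (34885 probes with 1, 18 with several, 10378 with none). One model of 6 group means over 12 arrays was fitted (lmFit, eBayes) with Benjamini-Hochberg adjustment over all features at 0.05, and ± is its standard error. The procedure was tested on simulated data.

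Members and lists were chosen with earlier results of these data known. Named were every member, Trex1 and Sting1, up to 4 called genes of each pathway list with the largest differences (or 2 of highest signal), markers not above background and the 2 of each list most different, and the 3 nearest profiles. Xist, Eif2s3y, Hnrnpa2b1, Sod2, Mrc1 and the tested liver markers were named after their values were seen. Alternatives changed the normalization, filter, variance prior, array weights, samples fitted and probe choice, added an Xist covariate, or left out arrays; list counts without 1 array were added after seeing the data.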

Additional observations from a re-analysis of the deposited data

Results flagged for a closer look

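A test of the difference between the Trex1 effects at 2 STING genotypes singled out 7 results. On the log2 scale and by limma with Benjamini-Hochberg adjustment over all features, the Trex1 effect was larger on STING+/+ than on STING-/- for Cd40 by 3.28 (adjusted p = 0.00107), Nfkbie by 3.14 (adjusted p = 0.0119), Traf1 by 3.08 (adjusted p = 0.00421), Tnfaip3 by 2.73 (adjusted p = 0.00881) and Bcl3 by 1.60 (adjusted p = 0.0303). It was larger on STING+/+ than on STING+/- for Traf1 by 2.56 (adjusted p = 0.0326) and Cd40 by 2.30 (adjusted p = 0.0221). Over all features 9.87% passed against STING-/- and 1.92% against STING+/-. Against STING-/- the call was lost for Bcl3 under 9 of 22 alternatives and for Nfkbie under 1 of 21. Against STING+/- it was lost for Traf1 under 14 of 21 and for Cd40 under 6 of 22. The filter favoured Traf1. For the 5 members named, both arrays labelled Trex-/- STING+/+ were above both Trex+/+ STING+/+ arrays, which these tests also use. The groups of 2 arrays are too small for a check of single outlying arrays.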

How the results depend on the processing

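With 2 arrays per group the precision is limited, and members near background (Traf1, Nfkbie, Tnfaip3) have compressed or bounded differences. Nfkb2 and Bcl3 were also dim outside the group labelled Trex-/- STING+/+, at 4.80 to 5.85 and 4.99 to 6.05. The lowest detected signals were 4.83 to 5.13, so their differences may be compressed too. No paired analysis was possible because the replicate numbers were given in accession order and pair no samples. Of 1740 member values under 22 alternatives, 1597 kept their direction and their side of the threshold. Of the rest, 95 lost a call, 12 gained one and 36 changed sign. Most of the 80 results behind these values were not called in the main fit and so had no call to lose. The tally thus says little on how stable the calls are. The cause of the changes below was not tested, except that the stricter filter tested fewer members. The count of members called for the Trex1 effect on STING+/+ went from 5 to 3 under the stricter filter, and that for the Trex1 effect on STING+/+ minus STING-/- also to 3. The count for STING+/- against STING+/+ within Trex-/- went from 6 to 3 with no filter, to 2 with array weights, with the Xist covariate or without the low-Hnrnpa2b1 arrays, and to 0 with only the groups compared. For STING-/- against STING+/- within Trex-/- it went from 1 to 0 with quantile normalization, the authors' values, no filter or only the groups compared. For the Trex1 effect on STING+/+ minus STING+/- it went from 2 to 1 with quantile normalization, the authors' values, no filter or the stricter filter, and to 0 with only the groups compared or without the low-Hnrnpa2b1 arrays.

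Leaving out 1 array, the counts ranged from 5 to 6 for the Trex1 effect on STING+/+, from 2 to 7 for STING+/- against STING+/+ within Trex-/- (2 without the second array labelled Trex-/- STING+/+ or the second Trex-/- STING+/-), from 5 to 7 for STING-/- against STING+/+ within Trex-/-, from 0 to 3 for STING-/- against STING+/- within Trex-/- (3 without the second Trex-/- STING+/- array, 1 without either labelled Trex-/- STING+/+, otherwise 0), from 3 to 5 for the Trex1 effect on STING+/+ minus STING-/- (3 without the first Trex-/- STING-/- array), and from 0 to 4 for STING+/+ minus STING+/- (4 without the first array labelled Trex-/- STING+/+; 0 without either Trex+/+ STING+/+ array, the first Trex+/+ STING+/- or the second Trex-/- STING+/-; 1 without the second Trex+/+ STING+/- or any STING-/- array). Features called for the Trex1 effect on STING+/+ numbered 3378, against 1998 with array weights, 1418 with only the groups compared, and 1660 to 5016 with 1 array left out. For STING-/- against STING+/+ within Trex-/- they numbered 3727, against 1925, 1288, and 2137 to 5297. For STING+/- against STING+/+ within Trex-/- they numbered 1713, against 367, 6, and 265 to 3955. With 1 array left out, features called for STING-/- against STING+/- within Trex-/- ranged from 67 to 325, against 211 with all arrays. For the Trex1 effect on STING+/+ minus STING-/- they ranged from 656 to 3256, against 1536. For STING+/+ minus STING+/- they ranged from 16 to 2903, against 299, so the member counts moved where calls over all features also moved widely. The share of calls that were higher, 54.3% for the Trex1 effect on STING+/+, was 67.6% with only the groups compared and 53.3% with quantile normalization.

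Sign changes touched only differences that passed no test. Without the low-Hnrnpa2b1 arrays, Relb was 0.17 on STING+/-, Nfkbia -0.23 in STING-/- against STING+/+ within Trex-/-, and, for the Trex1 effect on STING+/- minus STING-/-, Nfkb2 was 0.0014 and Nfkbia -0.12. With the Xist covariate, Nfkb2 was 0.23 on STING-/-, and in STING-/- against STING+/+ within Trex+/+ Relb was 0.25, Traf1 0.24 and Nfkb2 0.19. With 1 array left out, the Trex1 effect on STING+/+ ranged from -0.080 to 0.58 for Nfkbia. On STING+/- it ranged from -1.13 to 0.50 for Relb, -0.36 to 1.26 for Nfkbie and -0.34 to 0.094 for Nfkbia, and on STING-/- from -0.24 to 0.14 for Nfkb2, -0.54 to 0.087 for Nfkbia and -0.054 to 0.11 for Cd40. Within Trex-/-, Nfkbia ranged from -0.41 to 0.25 for STING+/- and from -0.23 to 0.43 for STING-/- against STING+/+. For STING-/- against STING+/- Relb ranged from -1.32 to 0.32, Nfkb2 from -0.28 to 0.42 and Nfkbie from -1.55 to 0.077. For STING-/- against STING+/+ within Trex+/+ Relb ranged from -0.17 to 0.16, Tnfaip3 from -0.18 to 0.65, Nfkb2 from -0.33 to 0.13 and Bcl3 from -0.19 to 0.13. For the Trex1 effect on STING+/- minus STING-/- Relb ranged from -0.42 to 1.22, Nfkb2 from -0.66 to 0.038, Bcl3 from -0.032 to 0.72 and Nfkbia from -0.21 to 0.41.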
